A study of Mus musculus with 8 samples.

Results

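The mouse zinc finger genes with a plain numbered symbol from Zfp700 to Zfp999 were compared between 3 induced pluripotent stem (iPS) cell lines and 1 embryonic stem (ES) cell line. The platform annotation held 96 genes with a symbol of exactly that form, with no letter after the number, among 18193 genes with a probe set of 1 symbol, and these 96 genes were covered by 169 probe sets. The samples were 2 arrays each of iPS line 1, iPS line 2, iPS line 3 and a normal ES control line, 8 arrays in all. The iPS lines are described as integration-free, that is, without reprogramming vectors left in the genome. All 4 lines were male and of C57BL/6 background, were grown in N2B27 medium with mouse LIF (leukaemia inhibitory factor, which holds mouse pluripotent cells in self-renewal) and were used between passage 7 and passage 10. Each group is a single line, so a difference between groups cannot be told apart from a difference between individual lines. By their titles the 2 arrays of a line are biological replicates, but separate cultures are not mentioned, so p-values here reflect array-to-array spread within a line that may be technical in origin.

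Most genes with such numbers encode C2H2 zinc finger proteins, in which a row of zinc-binding fingers reads a DNA sequence, and many of those in the mouse carry a KRAB domain. A KRAB zinc finger protein bound to DNA recruits the corepressor TRIM28, which brings in the histone methyltransferase SETDB1 and HP1 proteins and leaves histone H3 methylated at lysine K9. In mouse ES cells this pathway is known for keeping endogenous retroviruses and other retrotransposons silent. The genes lie in clusters that grew by tandem duplication, so neighbours can be close in sequence and hard to tell apart with short probes. Which members carry a KRAB domain was not checked here, and Zfp783 is annotated in RefSeq as a long non-coding RNA.

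Expression was read as MAS5 signals, linear intensities of biotin-labelled RNA on 3' arrays. Differences were tested with limma on log2(signal + 12) over 14004 genes with a signal above 37.1 in at least 2 arrays. A gene was called where its Benjamini-Hochberg adjusted p, taken across the 14004 genes, was under 0.05. Log2 differences are given ± SE from limma, and fold changes come from the same log2(signal + 12) values, so those of dim genes are understated. The 7 pluripotency markers, among them Pou5f1, Nanog and Sox2, were above the floor. Their summed signal lay between 94820 and 108300 in every array. Dppa5a and Tdgf1 had the largest mean signals, 36252 and 20829.5 over all arrays, so the sum says little about the others. Pou5f1 was called lower in line 2 than in ES cells (-0.23, limma, adjusted p = 0.0152). Dppa5a was called higher in line 2 than in line 1 (0.24, adjusted p = 0.0145 in limma). The markers gave no other call. Pou5f1 and Esrrb had their highest signals in the 2 ES arrays, while the other markers overlapped. Of 7 fibroblast or feeder markers, Col1a1, Col3a1, Postn and Dcn did not reach the floor in 2 arrays. The sum of the other 3, Col1a2, Thy1 and Lum, was 92.4 to 169. The 4 comparisons against ES cells share the same 2 ES arrays, and the comparisons that include line 2 share its arrays.

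Promoters of 7 members are shown because all of these genes were called in iPS line 2 against ES cells in the results that follow, and because they fall into 2 sequence groups. Each window holds 250 bases before and 50 bases after the annotated start of transcription, taken from RefSeq on build GRCm38.p6, and the table held a window for 86 of the 96 members. Zfp979 (chr4:147642459-147642758, minus strand) and Zfp982 (chr4:147492167-147492466, plus strand, 1 of 3 windows) lie in 1 cluster, with other genes between them, and were identical at 260 of 292 aligned positions, 89.0%.
Zfp979: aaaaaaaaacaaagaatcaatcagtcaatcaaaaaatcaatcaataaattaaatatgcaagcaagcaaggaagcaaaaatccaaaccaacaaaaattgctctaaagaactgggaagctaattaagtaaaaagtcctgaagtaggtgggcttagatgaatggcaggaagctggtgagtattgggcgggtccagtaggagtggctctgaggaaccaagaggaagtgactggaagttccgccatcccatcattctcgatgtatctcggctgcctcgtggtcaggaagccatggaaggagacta
Zfp982: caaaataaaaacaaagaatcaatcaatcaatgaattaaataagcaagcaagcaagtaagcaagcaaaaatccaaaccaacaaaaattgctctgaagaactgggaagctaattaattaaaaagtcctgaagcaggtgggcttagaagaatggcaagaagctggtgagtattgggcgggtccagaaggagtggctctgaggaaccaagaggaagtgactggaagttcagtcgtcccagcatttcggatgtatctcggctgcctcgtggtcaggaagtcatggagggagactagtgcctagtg
The other 5 promoters come from Zfp936 (chr7:43177340-43177639, plus strand), Zfp932 (chr5:109996260-109996559, plus strand), Zfp937 (chr2:150217849-150218148, plus strand), Zfp931 (chr2:178078376-178078675, minus strand) and Zfp938 (chr10:82241231-82241530, minus strand). They lie at 5 separate places in the genome, and pairs of them were identical at 56.0% to 67.8% of aligned positions. The alignment allowed gaps, and no identity of unrelated promoters was computed to set beside these values. Capitals mark the motifs TCACTCA and CCAATCA, of which CCAATCA includes the letters of the CCAAT box.
Zfp936: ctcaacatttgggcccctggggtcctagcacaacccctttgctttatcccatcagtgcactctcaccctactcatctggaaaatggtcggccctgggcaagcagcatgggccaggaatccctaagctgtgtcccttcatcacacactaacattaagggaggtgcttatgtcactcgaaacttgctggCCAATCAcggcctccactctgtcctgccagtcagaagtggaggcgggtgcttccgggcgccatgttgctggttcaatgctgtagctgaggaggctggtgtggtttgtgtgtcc
Zfp932: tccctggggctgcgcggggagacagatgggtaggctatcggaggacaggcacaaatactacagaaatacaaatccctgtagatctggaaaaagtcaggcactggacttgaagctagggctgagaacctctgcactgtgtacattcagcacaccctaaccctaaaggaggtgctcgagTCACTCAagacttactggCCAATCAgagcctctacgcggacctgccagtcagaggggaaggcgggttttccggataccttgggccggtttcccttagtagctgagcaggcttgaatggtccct
Zfp937: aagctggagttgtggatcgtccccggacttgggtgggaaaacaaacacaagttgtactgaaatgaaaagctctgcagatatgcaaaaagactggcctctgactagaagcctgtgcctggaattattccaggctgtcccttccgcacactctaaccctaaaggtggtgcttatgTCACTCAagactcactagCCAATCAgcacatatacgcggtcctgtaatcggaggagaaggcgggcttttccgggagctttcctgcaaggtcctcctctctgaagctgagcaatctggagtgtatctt
Zfp931: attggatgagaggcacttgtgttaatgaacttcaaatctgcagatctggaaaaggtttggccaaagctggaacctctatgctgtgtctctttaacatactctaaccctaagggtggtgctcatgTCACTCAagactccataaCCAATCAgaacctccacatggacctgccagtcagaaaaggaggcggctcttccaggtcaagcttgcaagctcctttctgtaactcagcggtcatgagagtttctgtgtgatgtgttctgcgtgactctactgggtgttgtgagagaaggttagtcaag
Zfp938: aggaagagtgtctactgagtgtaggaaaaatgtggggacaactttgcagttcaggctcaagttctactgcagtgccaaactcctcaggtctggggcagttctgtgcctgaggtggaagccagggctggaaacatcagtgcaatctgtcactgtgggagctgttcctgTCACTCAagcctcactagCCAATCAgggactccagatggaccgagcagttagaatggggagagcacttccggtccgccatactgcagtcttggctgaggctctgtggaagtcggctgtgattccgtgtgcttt

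The pair of motifs in these promoters was searched for on both strands, as TCACTCA followed by CCAATCA within the next 40 bases of the same strand. It was present in 16 of 103 member windows (15.5%), which belong to 12 genes, in 3 of 239 windows (1.26%) of the genes Zfp1 to Zfp699, and in 86 of all 32851 windows (0.262%). The 12 genes were Zfp788, Zfp799, Zfp866, Zfp868, Zfp869, Zfp931, Zfp932, Zfp937, Zfp938, Zfp939, Zfp958 and Zfp959. Of the promoters printed, those of Zfp932, Zfp937, Zfp931 and Zfp938 hold both motifs, that of Zfp936 holds CCAATCA alone, and those of Zfp979 and Zfp982 hold neither. On its own CCAATCA was found in 32.0% of member windows and 7.82% of all windows, and TCACTCA in 22.3% and 4.99%. The shorter CCAAT was found in 60.2% of member windows and 37.4% of all windows. The TATA box letters TATAAA were found in 5.83% of member windows and 13.6% of all windows. Median CpG counts per window were 11 in members, 16 in Zfp1 to Zfp699 and 7 over all windows. The motifs were chosen after the sequences had been read, duplicated genes share their promoters by descent, and a match is a description of letters only.

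Of the 96 members, 87 passed the filter on low signal and 9 did not. The 9 were Zfp703, Zfp735, Zfp773, Zfp783, Zfp784, Zfp786, Zfp853, Zfp879 and Zfp974, and none of their probe sets exceeded the floor on more than 1 array. Zfp703, a corepressor gene of the NET family, was covered by 3 such probe sets. The 87 that passed include 80 that were above the floor on all 8 arrays and 1, Zfp957, that passed through the arrays of line 3 alone. Mean signals over all arrays ran from 24.1 (Zfp957) to 6784 (Zfp982), with a median of 237, against a median of 320.4 over all genes tested. Levels of different genes cannot be ranked as transcript abundance, since each probe set binds with its own strength. Several probe sets above the floor on all arrays were available for 27 members, and in 15 of these all of them had the same sign in line 2 against ES cells. The probe set with the highest mean stood for each gene. Probe sets of Zfp706 carried a second symbol, and the gene was therefore not a member.

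The brightest probe sets belonged to Zfp982, Zfp979, Zfp991, Zfp871 and Zfp770. Zfp982, reported to help sustain pluripotency genes in mouse ES cells, had signals of 5876 and 6734 in line 1, 5159 and 5806 in line 2, 8069 and 7661 in line 3, and 7704 and 7262 in ES cells. Zfp979, known as Ssm1b, a modifier of DNA methylation at a transgene that varies between mouse strains, had 5104 and 4973 in line 1, 3168 and 3302 in line 2, 5858 and 5660.2 in line 3, and 5742 and 5436 in ES cells. In both genes the 2 arrays of line 2 were the lowest of the 8, by a wide gap for Zfp979 and by a narrow one, to an array of line 1, for Zfp982. Zfp991, in the same cluster on chromosome 4, had 2049 and 1973 in line 1, 2611 and 2857 in line 2, 3003 and 2783 in line 3, and 2369.7 and 2406 in ES cells, so line 1 rather than line 2 was the lowest group. Zfp871 had 1566 and 1459.8 in line 1, 2194 and 2225 in line 2, 1442 and 1541 in line 3, and 1478 and 1358 in ES cells, with both line 2 arrays above the other 6. Zfp770 had 1589.5 and 1529.8 in line 1, 1433 and 1629 in line 2, 1565 and 1624 in line 3, and 1541 and 1528 in ES cells, with lines 1 and 2 overlapping ES cells and both arrays of line 3 above both ES arrays.

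The average of the 3 lines minus ES cells was read next, and a single line can carry a call in it. In this average Zfp946, Zfp948, Zfp839, Zfp799, Zfp809 and Zfp871 were higher than in ES cells. Zfp932, Zfp936, Zfp850 and Zfp979 were lower. In lines 1, 2 and 3 Zfp871 differed by 0.09, 0.64 and 0.07, and Zfp979 by -0.15, -0.79 and 0.04. The 10 log2 differences of the average lay between -0.46 and 0.53. These 10 calls are 11.49% of the 87 members tested, against 7.30% of all genes tested (4.27% higher and 3.03% lower) and 4.62% of the 195 tested genes Zfp1 to Zfp699, whose 9 calls were 4 higher and 5 lower. Whether these shares differ was not tested. The median log2 difference was 0.06 over the members and 0.02 over all genes. Quantile normalization gave 4 higher and 4 lower members.

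Zfp932, which represses endogenous retroviruses of the ERVK class in mouse ES cells, was the only member called in every iPS line. Its signals were 1397 and 1228 in line 1, 1220.1 and 1297 in line 2, 1329 and 1498 in line 3, and 1748 and 1908 in ES cells, the ES arrays being the highest 2 of the 8. The log2 difference was -0.46 ± 0.08 for the mean of the lines (n = 6 iPS and 2 ES arrays, limma, adjusted p = 0.00277), a 1.37-fold lower level. Line by line it was -0.48 ± 0.09 in line 1 (adjusted p = 0.0176 in limma), -0.53 ± 0.09 in line 2 (adjusted p = 0.00104) and -0.37 ± 0.09 in line 3 (adjusted p = 0.0447). The differences between the lines were -0.06 for line 2 over line 1, -0.16 for line 2 over line 3 and -0.11 for line 1 over line 3, none of them past the threshold.

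Zfp799 was the counterpart among the members that were higher. Signals were 670.5 and 801 in line 1, 706 and 789 in line 2, 744 and 742 in line 3, and 559 and 558 in ES cells, and the 6 iPS arrays lay above both ES arrays. The mean difference was 0.40 ± 0.09 (limma, adjusted p = 0.0153), and the single lines gave 0.38, 0.41 and 0.40, of which line 2 passed the test. Zfp948 was likewise above both ES arrays in all 6 iPS arrays, with 483 and 536 in line 1, 542 and 561 in line 2, 459 and 607 in line 3, and 423 and 343 in ES cells. Its mean difference was 0.46 ± 0.12 (limma, adjusted p = 0.0348). The spread between the 2 arrays of line 3 was wider than the distance of the lower one to the nearer ES array.

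Zfp809 recognises the proline primer-binding site of retroviruses and silences them in ES cells. Its signals were 569 and 701 in line 1, 852 and 755 in line 2, 693 and 706 in line 3, and 573 and 505 in ES cells, and 1 array of line 1 lay between the ES arrays. The mean difference was 0.39 ± 0.10 (limma, adjusted p = 0.0312), and 0.57 ± 0.12 in line 2 (adjusted p = 0.00377). In lines 1 and 3 it was 0.23 and 0.37, below the threshold. Zfp946 had 385 and 372 in line 1, 475 and 519 in line 2, 289 and 421 in line 3, and 297 and 256 in ES cells, with line 2 highest and 1 array of line 3 within the ES range. Zfp839 had 394 and 417 in line 1, 428 and 459.7 in line 2, 331 and 265 in line 3, and 282 and 261 in ES cells, with lines 1 and 2 above ES cells and line 3 overlapping them. The mean differences of these 2 genes were 0.53 ± 0.13 (adjusted p = 0.0323) and 0.46 ± 0.11 (adjusted p = 0.0274) in limma.

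**Figure D1:**
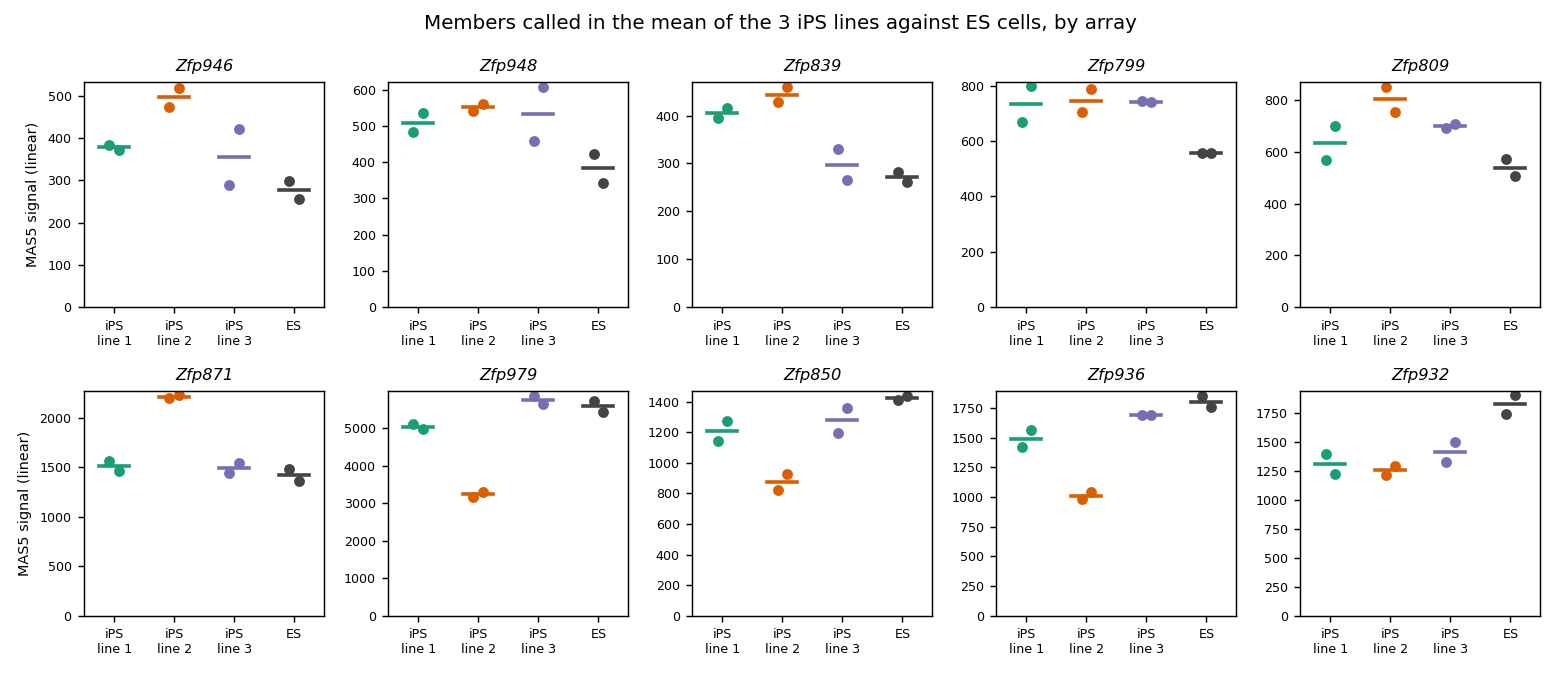
MAS5 signal (linear, axis from 0) of the 10 members called in the average of the iPS lines minus ES cells, with a point for each array and a bar for the mean of the 2 arrays of iPS line 1, line 2, line 3 and ES cells. All 6 iPS arrays lie above both ES arrays for Zfp948 and Zfp799 and below both for Zfp850, Zfp936 and Zfp932, while line 2 alone stands apart for Zfp871 and Zfp979.

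Leaving out line 2 kept 2 of these 10 calls. Without it the mean of lines 1 and 3 against ES cells was -0.42 for Zfp932 and 0.39 for Zfp799, both called, and Zfp934 became the only other member called. The other 8 differences fell to -0.05 for Zfp979, 0.08 for Zfp871, -0.18 for Zfp936, -0.20 for Zfp850, 0.30 for Zfp809, 0.34 for Zfp839, 0.38 for Zfp946 and 0.43 for Zfp948. The share called then was 3 of 85 members, against 3.71% of 13526 genes. Leaving out replicate 1 of the ES cells kept Zfp932 alone, and leaving out replicate 2 kept Zfp936 and Zfp979. Averaging probe sets ended the call of Zfp871 in the mean of the lines.

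Separation of single arrays was also counted without a test. Both ES arrays lay below all 6 iPS arrays for 7 members (8.05%), against 7.16% of all genes, and above all 6 for 5 members (5.75%), against 5.74%. The 7 were Zfp708, Zfp760, Zfp763, Zfp799, Zfp941, Zfp948 and Zfp994, and the 5 were Zfp715, Zfp830, Zfp850, Zfp932 and Zfp936. Both shares are near those of all genes. Zfp708, which binds and maintains methylation at RMER19B retrotransposons, had 99.3 and 106 in line 1, 102 and 95.7 in line 2, 82.1 and 107 in line 3, and 49.0 and 79.5 in ES cells. Its mean difference of 0.56 ± 0.23 was not past the threshold (limma, adjusted p = 0.171). Zfp830, needed for survival of the early mouse embryo, had 1129 and 1054 in line 1, 1065 and 1083 in line 2, 979 and 912 in line 3, and 1167 and 1185 in ES cells and a mean difference of -0.18 ± 0.07 (adjusted p = 0.137 in limma).

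In iPS line 1 against ES cells, 2 of 87 members were called (2.30%), both lower, against 2.34% of all genes (1.21% higher and 1.12% lower). They were Zfp932, given above, and Zfp934, a gene on chromosome 13. Zfp934 had signals of 1051 and 1102 in line 1, 1666 and 1753 in line 2, 1358 and 1275 in line 3, and 1513 and 1641 in ES cells. Both arrays of line 1 were the lowest of the 8, line 3 was next, and line 2 lay above the ES arrays. The difference of line 1 from ES cells was -0.55 ± 0.08 (limma, adjusted p = 0.00292), a 1.46-fold lower level, and averaging its probe sets ended the call. Without replicate 2 of the ES cells neither gene was called in limma, with 13 members at an unadjusted p under 0.05, and without replicate 1 of the ES cells or replicate 2 of line 1 only Zfp934 was.

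In iPS line 3 against ES cells, Zfp932 was the only member called (1.15%, against 4.16% of all genes, 1.59% higher and 2.57% lower), and 10 members had an unadjusted p under 0.05 in limma. Its call there was lost under quantile normalization, under median centring of the arrays, and on leaving out either ES array or either array of line 3. The median difference over members was 0.04 in line 3 and -0.01 in line 1, against -0.01 and 0.01 over all genes.

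Line 2 against ES cells gave 10 higher and 9 lower members, 21.84% of those tested, against 26.7% of all genes (16.1% higher and 10.6% lower). The members' share is below that of all genes, and Zfp1 to Zfp699 had 17 higher and 20 lower of 195, or 18.97%. Quantile normalization gave 7 higher and 11 lower members and median centring gave 7 higher and 10 lower, so the direction in which more members were called flipped with the scaling. The median difference over members, 0.14 as deposited, was -0.000512 after quantile normalization and 0.0484 after centring. Over all genes 60.4% of the calls in line 2 were higher as deposited and 46.0% after centring. The beta-actin 3'/5' ratio, which tracks RNA quality, was 1.74 and 1.79 in line 2 and 1.49 to 1.62 in the other 6 arrays. The Gapdh 3'/5' ratio did not set line 2 apart, at 0.915 and 0.946 against 0.856 to 0.935 in the other 6. The median signal was 62.2 and 64.3 in line 2, against 54.1 to 59.9. The 3 of 5 neural progenitor markers that passed the filter summed to 231 to 253 in line 2 and to 262 to 336 elsewhere. Among them Pax6 had 52.4 and 49.9 in line 2 and 65.6 to 188 elsewhere. Nes was not lower in line 2, at 138.6 and 156.8 against 96.0 to 148 elsewhere, and Sox1 overlapped the other iPS lines. The 4 of 5 trophoblast markers that passed the filter summed to 624 to 700.5 in line 2 and to 517 to 665 elsewhere. Most of that sum is Eomes, at 548 and 414 in line 2 and 336 to 450 elsewhere. Gata3 went the other way, at 24.4 and 25.5 in line 2 and 54.3 and 84.0 in ES cells, without a call. Cdx2 and Hand1 in line 2 overlapped the other arrays. The part of these differences in the line 2 results was not tested.

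**Figure D2:**
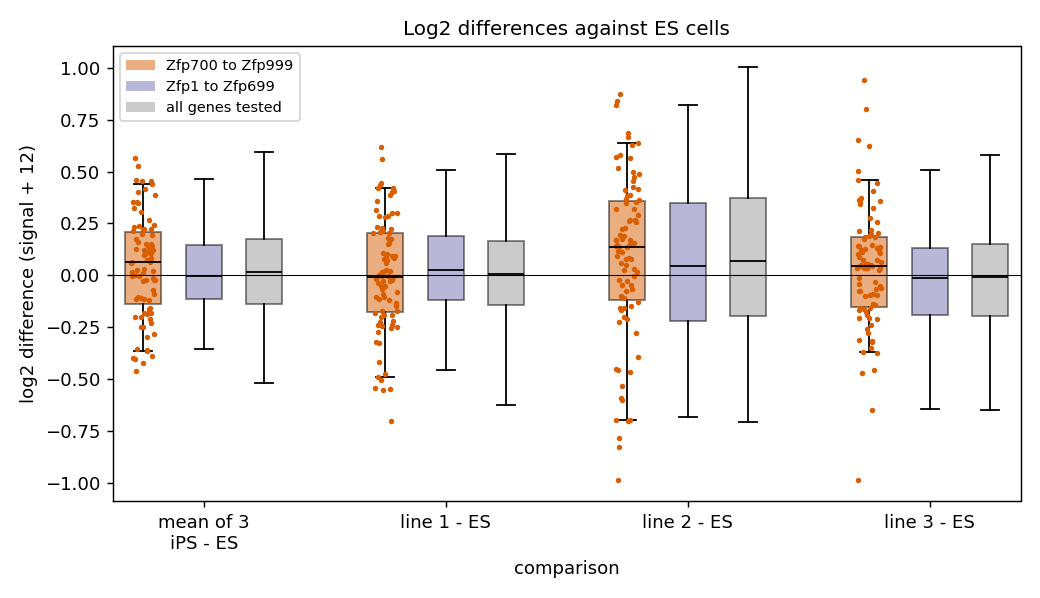
Log2 difference of log2(signal + 12) against ES cells for the average of the iPS lines and for each line. Orange boxes and points are the 87 tested members, blue boxes the 195 tested genes Zfp1 to Zfp699 and grey boxes all 14004 genes. Boxes span the quartiles with the median as a line. Whiskers extend beyond the quartiles without marking the full range, and single values are drawn as points for the members only. The members' median is 0.14 in line 2 and between -0.01 and 0.06 in the other comparisons.

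Among the members called lower in line 2 against ES cells, Zfp936 and Zfp979 differed most. Zfp936 had 1420.0 and 1563 in line 1, 979.8 and 1046 in line 2, 1689.9 and 1692 in line 3, and 1849 and 1759 in ES cells, with line 2 below every other array and the ES arrays highest. Its difference in line 2 was -0.83 ± 0.08 (limma, adjusted p = 1.23e-05), a 1.77-fold lower level. Zfp979, whose signals are given above, was 1.72-fold lower (-0.79 ± 0.06, adjusted p = 1.95e-06 in limma). Zfp850 had 1142 and 1273 in line 1, 819 and 925 in line 2, 1196 and 1361 in line 3, and 1413 and 1438 in ES cells, and line 2 was 1.63-fold lower than ES cells (-0.70 ± 0.10, adjusted p = 0.000184 in limma). Zfp982, in the same cluster as Zfp979, differed by -0.45 ± 0.08 (adjusted p = 0.001 in limma). For Zfp982 the value rests on a probe set of the type that also matches other transcripts, and its 3 bright probe sets ranged from -0.45 to 0.12 in line 2, and averaging its probe sets or leaving out that type ended the call.

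Zfp771, Zfp865 and Zfp711 were also lower in line 2. Zfp771 had 536 and 558 in line 1, 330.2 and 354 in line 2, 650.5 and 657 in line 3, and 540.3 and 584 in ES cells and a difference of -0.70 ± 0.11 (limma, adjusted p = 0.000381). That probe set too is of the cross-matching type, and without such probe sets the call was lost on a dim probe set with a difference of -1.84 (limma, adjusted p = 0.0867). Zfp711, an X-linked partner of the histone demethylase PHF8, had 149.9 and 148 in line 1, 92.4 and 93.9 in line 2, 119 and 141 in line 3, and 149.6 and 145 in ES cells, with line 2 below every other array. Its difference was -0.60 ± 0.20 (limma, adjusted p = 0.0436), and the call was lost under 10 of 19 alternative settings. Zfp865 had 168 and 148 in line 1, 97.2 and 125 in line 2, 184 and 131 in line 3, and 194 and 178 in ES cells, line 2 again lowest, and the difference was -0.70 ± 0.22 (adjusted p = 0.0303 in limma). Averaging the probe sets of Zfp865 brought this to -0.37 and ended the call (limma, adjusted p = 0.311). The remaining lower members were Zfp932 and Zfp961. Zfp961 had 679 and 649 in line 1, 593 and 834 in line 2, 940.1 and 912 in line 3, and 1050.3 and 906 in ES cells and differed by -0.46 ± 0.14 (adjusted p = 0.0238 in limma), with 1 array of line 2 above the arrays of line 1, and averaging its probe sets ended the call.

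Among the higher members of line 2, Zfp871 had the smallest adjusted p, with a difference of 0.64 ± 0.08 (limma, adjusted p = 8.03e-05), a 1.55-fold higher level. Its 3 bright probe sets gave 0.23 to 0.71, all of the same sign. Zfp946 was 1.76-fold higher (0.82 ± 0.16, adjusted p = 0.00265 in limma) and Zfp839 1.61-fold higher (0.69 ± 0.14, adjusted p = 0.00265). Zfp937, Zfp931 and Zfp938 share the promoter motif pair. Zfp937 had 77.3 and 74.6 in line 1, 158 and 165 in line 2, 44.6 and 84.9 in line 3, and 71.4 and 95.1 in ES cells, a dim gene with line 2 above all other arrays. Zfp931 had 427 and 629 in line 1, 753 and 839.7 in line 2, 362 and 457 in line 3, and 509 and 514 in ES cells, and Zfp938 had 167 and 239 in line 1, 326 and 347 in line 2, 189 and 215 in line 3, and 227 and 189 in ES cells, again with line 2 highest in each case. The probe set of Zfp931 is of the cross-matching type and the only one it had. In line 2 the differences were 0.87 ± 0.30 for Zfp937 (adjusted p = 0.045), 0.63 ± 0.16 for Zfp931 (adjusted p = 0.0129) and 0.67 ± 0.18 for Zfp938 (adjusted p = 0.0173), all by limma. Zfp809, Zfp948, Zfp799 and Zfp760 completed the 10, with differences of 0.57, 0.52, 0.41 and 0.39.

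Of these 19 members, 12 were called without replicate 1 of the ES cells, 11 without replicate 2 of the ES cells, 13 without replicate 1 of line 2 and 12 without replicate 2 of line 2. The calls of Zfp946, Zfp839, Zfp871, Zfp936, Zfp979 and Zfp850 in line 2 held under all 19 alternatives that could be computed for each. That of Zfp937 was lost under 12 of 19 and that of Zfp711 under 10 of 19.

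**Figure D3:**
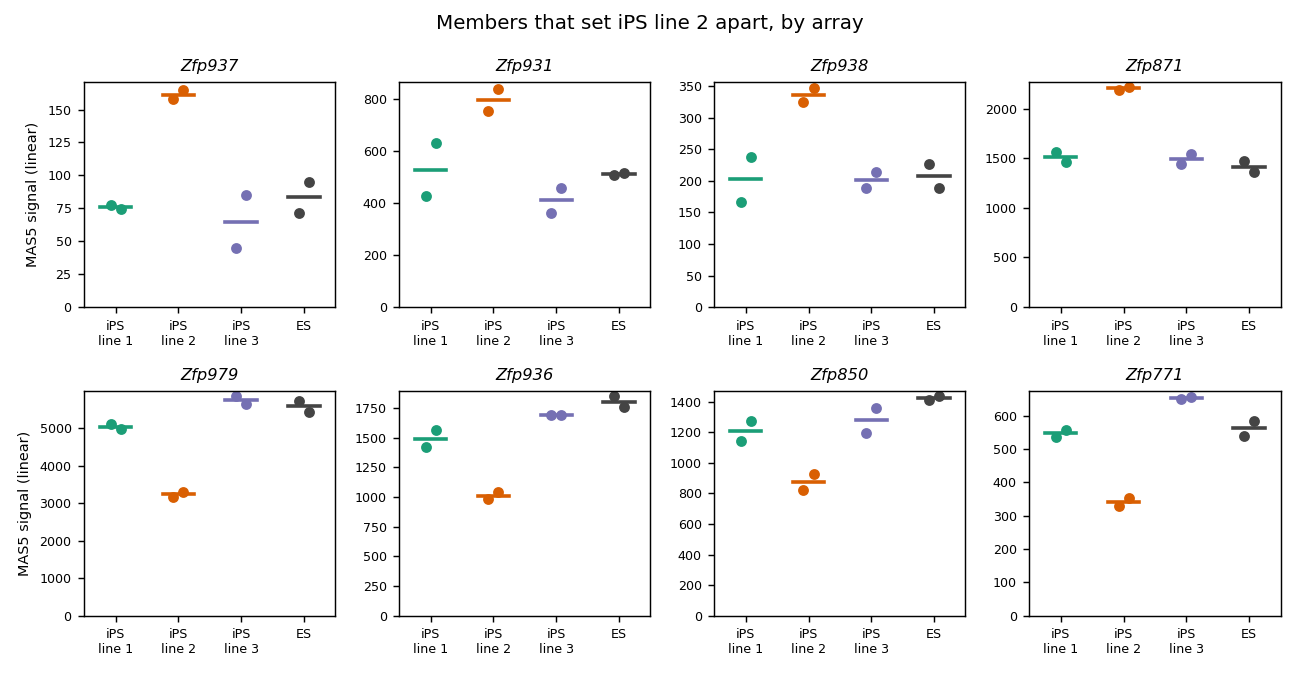
MAS5 signal (linear, axis from 0) of 8 members whose level in iPS line 2 differs from that in the other lines, with a point for each array and a bar for the mean of 2. Line 2 lies above all other arrays for Zfp937, Zfp931, Zfp938 and Zfp871 and below all other arrays for Zfp979, Zfp936, Zfp850 and Zfp771.

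Against the other iPS lines, line 2 was again the line with most calls. For line 2 over line 1, 8 members were higher and 5 lower (14.94%, against 23.3% of all genes, 13.8% higher and 9.54% lower), and median centring gave 6 of each. For line 2 over line 3, 10 were higher and 7 lower (19.54%, against 31.1%, 19.0% higher and 12.1% lower), the 7 including Zfp957, and quantile normalization turned this to 5 higher and 12 lower and centring to 7 higher and 11 lower. Centring moved the median of all genes by over 0.1 in these comparisons, to -0.0551 from 0.0688 for line 2 over line 1 and to -0.0525 from 0.0829 for line 2 over line 3. Among the members called higher in line 2, the largest differences were those of Zfp937, 0.98 ± 0.30 over line 1 and 1.23 ± 0.30 over line 3 (limma, adjusted p = 0.0306 and adjusted p = 0.00684). Zfp931 differed by 0.61 ± 0.16 and 0.95 ± 0.16 (adjusted p = 0.0179 and adjusted p = 0.000784 in limma), and Zfp938 by 0.72 ± 0.18 and 0.71 ± 0.18 (adjusted p = 0.0139 and adjusted p = 0.0107). Zfp934, lowest in line 1, was 1.58-fold higher in line 2 than in line 1 (0.66 ± 0.08, adjusted p = 0.000114 in limma). Zfp979 was 1.56-fold lower in line 2 than in line 1 and 1.78-fold lower than in line 3, with adjusted p values of 2.02e-05 and 1.07e-06 in limma. Zfp936 was 1.47-fold and 1.66-fold lower.

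Other members were called between iPS lines. Zfp800, whose human counterpart ZNF800 restrains endocrine cell formation in gut organoids, had 182 and 142 in line 1, 278 and 193 in line 2, 136 and 98.5 in line 3, and 181 and 147 in ES cells. Line 2 was higher than line 3 by 0.93 ± 0.23 (limma, adjusted p = 0.00855), although its lower array, at 193, was near the higher array of line 1, at 182, and averaging its probe sets that passed the filter gave 0.52 and ended the call (limma, adjusted p = 0.101). Zfp957 had 9.29 and 14.7 in line 1, 6.11 and 5.25 in line 2, 58.8 and 51.8 in line 3, and 29.5 and 17.5 in ES cells. It was above the floor of 37.1 in line 3 alone and at least 1.49-fold higher there than in line 2, which is given as a description, since the arrays of line 3 were also what carried the gene past the filter. Zfp819, which represses transposable elements in germ and pluripotent cells, had 765 and 889.5 in line 1, 1032 and 1098 in line 2, 887 and 931 in line 3, and 873 and 1019.5 in ES cells and was higher in line 2 than in line 1 by 0.36 ± 0.10 (adjusted p = 0.0243 in limma). For line 1 over line 3, Zfp991 was the only member called (1.15%, against 1.41% of all genes, 1.06% higher and 0.350% lower), with -0.52 ± 0.07 (adjusted p = 0.00293 in limma). It was also higher in line 2 than in line 1, by 0.44 ± 0.07 (adjusted p = 0.000957 in limma). Its second bright probe set gave 0.49 for line 1 over ES cells where the first gave -0.25, and the mean of its probe sets was called for neither pair of lines. Leaving out line 2 added Zfp961 as called lower in line 1 than in line 3.

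The members were concentrated on a few chromosomes, 22 on chromosome 7, 19 on chromosome 17, 12 on chromosome 8 and 8 on chromosome 13. With at most 10 annotated genes between neighbours, 8 clusters held at least 3 tested members. The largest, on chromosome 17, runs from Zfp948 to Zfp945, and all 12 of its members were tested. In line 2, 3 of them were higher (Zfp946, Zfp948 and Zfp760), none was lower and 9 of 12 differences were above 0, with a median of 0.29. Of all genes, 16.1% were called higher and 10.6% lower in line 2, and 57.5% of the differences were above 0. The median was 0.10 in line 1 and 0.05 in line 3. Quantile normalization left Zfp946 as the only member of this cluster called higher in line 2, and Zfp944 was then called lower. That call rests on the probe set used for Zfp944, at -0.28 as deposited, while its other bright probe set gave 0.85. Bright probe sets of Zfp820, Zfp942 and Zfp945 also differed in sign in line 2, whereas those of Zfp995 agreed. The count of 9 of 12 above 0 therefore depends on the probe set taken for each gene. With the probe sets used, Zfp983 had the largest difference of the cluster in line 2, 0.84 ± 0.57, and was not called (limma, adjusted p = 0.325). Its highest array, in line 2, had a signal of only 58.7.

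A second cluster on chromosome 17, from Zfp871 to Zfp763, held 6 tested members. Zfp871 and Zfp799 were higher in line 2 and none was lower, 5 of 6 differences were above 0 in each line (51.5%, 57.5% and 48.9% of all genes in lines 1, 2 and 3), and the medians were 0.22 in line 1, 0.34 in line 2 and 0.11 in line 3. Zfp870 was the exception, with 187 and 149 in line 1, 153 and 185 in line 2, 153 and 172 in line 3, and 233 and 170.3 in ES cells, differences of -0.24, -0.23 and -0.28 in lines 1, 2 and 3, and no call. The cluster on chromosome 4 behaved differently. Zfp979 and Zfp982 were lower in line 2 while their neighbour Zfp991 differed by 0.19 ± 0.07 (adjusted p = 0.068 in limma). In line 3 all 3 genes of that cluster were above 0 and in line 1 all 3 were below 0, without a call in either line.

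The other 5 clusters held few calls. On chromosome 8, the 5 members from Zfp930 to Zfp866 had no call in any line against ES cells and a median of 0.17 in line 2. On chromosome 13, Zfp712, Zfp708, Zfp759 and Zfp953 had none either, with differences in line 2 from -0.59 for Zfp953 to 0.57 for Zfp708. Zfp953 was called lower in line 2 under both other scalings. The cluster of Zfp746, the PARIS gene that represses PGC-1 alpha, on chromosome 6 had 3 of its 5 members tested and none called. Zfp771 was the only call among Zfp771, Zfp768 and Zfp764 on chromosome 7, and Zfp961 among Zfp709, Zfp882 and Zfp961 on chromosome 8.

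**Figure D4:**
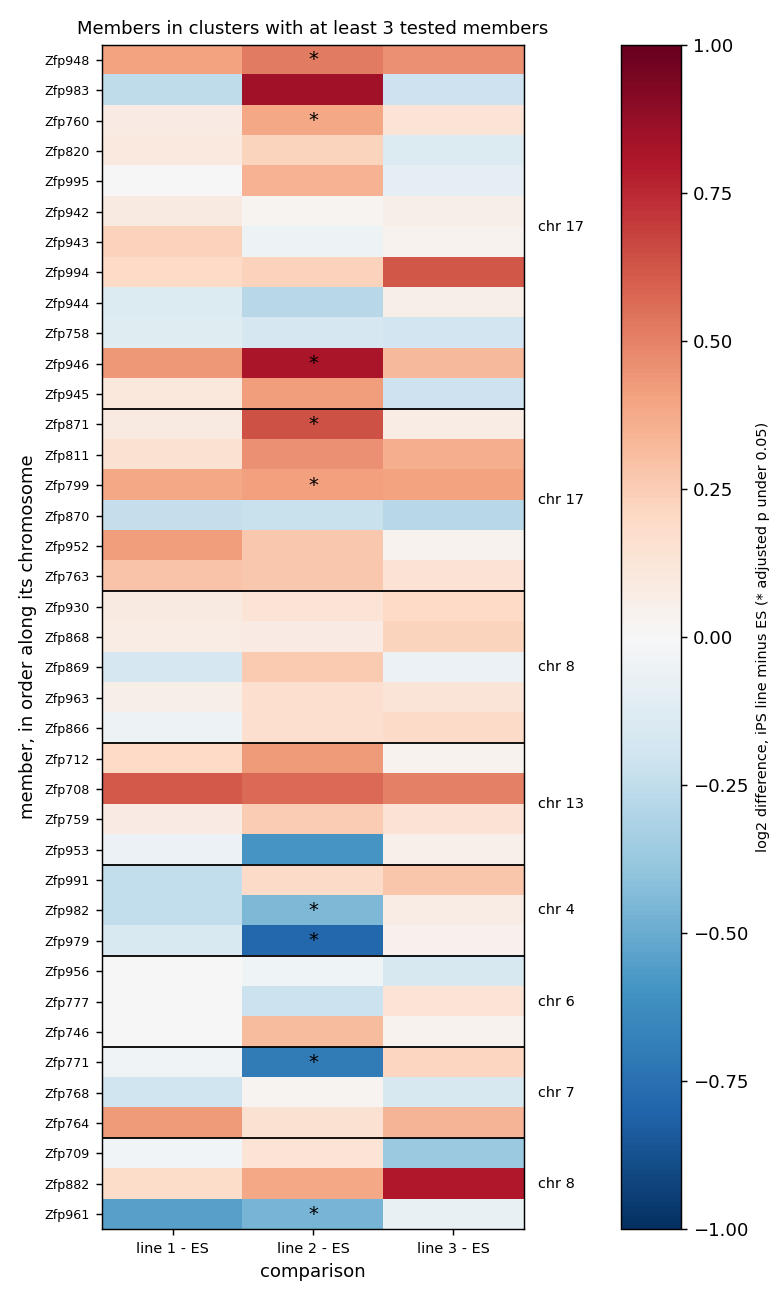
Log2 difference of each iPS line from ES cells for the tested members of the 8 clusters with at least 3, in order along the chromosome, with black lines between clusters. Red is higher and blue lower in the iPS line on a scale from -1 to 1, and asterisks mark adjusted p under 0.05 in limma. The asterisks all stand in the column of line 2.

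The 12 genes with the promoter motif pair did not move as a block. In line 2 against ES cells, 4 were higher (Zfp799, Zfp931, Zfp937 and Zfp938), 1 was lower (Zfp932) and 7 were not called. The median difference was 0.31, and of all genes 16.1% were called higher and 10.6% lower. The motif pair was read from promoters printed because their genes were called in line 2, among them Zfp931, Zfp932, Zfp937 and Zfp938. Those calls were therefore fixed in advance, and the count and median cannot be set against the shares of all genes. Zfp869, with 606 and 669 in line 1, 833 and 894 in line 2, 742 and 637 in line 3, and 662 and 779 in ES cells, was higher in line 2 than in line 1 by 0.43 ± 0.11 (adjusted p = 0.0161 in limma). Zfp788, Zfp866, Zfp868, Zfp939, Zfp958 and Zfp959 were called in none of the comparisons.

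Further members with known roles were called in none of the comparisons. Zfp704 had 355 and 350.3 in line 1, 398 and 415 in line 2, 395 and 376 in line 3, and 373 and 338 in ES cells and a mean difference of 0.10 ± 0.10. Zfp710 had 496 and 422 in line 1, 433 and 486 in line 2, 359.9 and 341 in line 3, and 314 and 398 in ES cells, with 0.24 ± 0.12 for the mean and 0.36 in line 2 against ES cells, where it was called only without replicate 2 of the ES cells among the settings tried. Zfp827, whose human counterpart ZNF827 recruits the NuRD complex to telomeres, had 133 and 139 in line 1, 161 and 146 in line 2, 132 and 147 in line 3, and 156 and 131 in ES cells, and the mean difference was -0.00 ± 0.16. Zfp750, a gene of epidermal differentiation, was dim and scattered at 47.5 and 7.85 in line 1, 60.3 and 72.7 in line 2, 33.0 and 79.7 in line 3, and 54.6 and 34.8 in ES cells. In all, 26 of the 87 members (29.9%) were called in at least 1 comparison and 61 in none, against 39.6% of all genes called in at least 1. The 26 include Zfp957, whose only call was for line 2 over line 3 and which passed the filter through the arrays of line 3 alone.

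The machinery that KRAB zinc finger proteins use was described with a list of 22 genes, of which 20 were tested. Trim28, the central corepressor, had 18458 and 18268 in line 1, 17231 and 17173 in line 2, 20150.2 and 19164 in line 3, and 18070.4 and 19784 in ES cells, and its mean difference from ES cells was -0.04 ± 0.05 (limma, adjusted p = 0.667). For the mean of the lines, 1 of the 20 was higher (Cbx5, an HP1 gene, 0.23) and 2 were lower, Smarcad1 at -0.23 and Resf1 at -0.25, or 15.0% against 7.30% of all genes. In line 2, Cbx5, Dnmt1 (the maintenance DNA methyltransferase) and Ehmt1 were higher, with 0.40, 0.32 and 0.28. There 5 were lower: Smarcad1, a chromatin remodeler that acts with TRIM28, at -0.74 ± 0.07 (limma, adjusted p = 7.99e-06), Daxx at -0.52, Atrx at -0.37, Setdb1 at -0.36 and Resf1 at -0.32. Smarcad1 had 3470.0 and 3146 in line 1, 1989 and 1977 in line 2, 3364 and 3498 in line 3, and 3332 and 3297 in ES cells. Setdb1 had 1308 and 1159 in line 1, 953 and 996 in line 2, 1175 and 1344 in line 3, and 1314 and 1192 in ES cells, with both arrays of line 2 below the other 6. These 8 of 20 calls in line 2 are 40%, against 26.7% of all genes, and the median over the list was -0.05. Line 1 had Resf1 lower (-0.28) and line 3 had Cbx1 higher (0.23) as their only calls, 5.0% of the list in each against 2.34% and 4.16% of all genes. Apart from Cbx3 and Chd3, the tested genes of the list had mean signals above the median of 320.4 over all genes. The shares therefore compare genes of unlike brightness, whether they differ was not tested, and the alternative settings were not applied to this list.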

How the data were processed

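RNA of 8 samples was measured on Affymetrix 3' arrays. Each deposited value is a linear MAS5 intensity for 1 probe set (MAS5 is named in the submitters' processing notes). Not given in the sources used here are its version, scaling target and detection calls. The trimmed mean signal was 500.004 on all 8 arrays, and signals were used without rescaling. Of 45101 probe sets, 34945 carried 1 gene symbol in the platform annotation. All 96 members matched the RefSeq table (GRCm38.p6), which supplied chromosome names, gene order and promoters.

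To each signal 12 was added (the 20th percentile of all values) before taking log2. Probe sets above 37.1, the 40th percentile, in at least 2 arrays were kept, and the brightest stood for its gene. limma 3.58.1 in R 4.3.3 fitted 4 group means with an intensity trend (4 residual and 12.4 total degrees of freedom). Tests were two-sided with Benjamini-Hochberg adjustment over 14004 genes. Where all arrays of the lower group were at or under the floor, the fold is a bound against it. On simulated data with 14004 genes, the mean comparison recovered 53% of changes of 0.5 log2 units and 70% of changes of 1, and line 2 against ES cells 42% and 64%, each with 4 false calls. Only 100 genes were changed at each size there, whereas 3738 genes were called in line 2. Recovery depends on how many genes change, so these shares do not give the recovery of the actual tests. Only 2 arrays per line limit the precision.

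There were 7 comparisons: the average of the iPS lines minus ES cells, each single line minus ES cells, and the line pairs. Named are members called (up to 12 in each direction for the mean, 6 for a line and 4 for a pair, others in counts), the 5 brightest, those with known roles and those in clusters of at least 3. The remaining called members were named after their values were seen. The members, lists and tests were chosen with earlier results of these data known. Alternatives covered scaling, pseudocount, filter, probe set rule, variance trend, replicate block, the groups compared, leaving out line 2 and each array.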

Additional observations from a re-analysis of the deposited data

Results flagged for a closer look

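Differences of single members between iPS lines, each tested in limma as a difference between lines with Benjamini-Hochberg adjustment over 14004 genes and with 2 arrays per line, were picked out because the lines departed from ES cells by unequal amounts. Log2 differences of line 2 over line 1 were 0.98 for Zfp937 (adjusted p = 0.0306), 0.72 for Zfp938 (adjusted p = 0.0139), 0.66 for Zfp934 (adjusted p = 0.000114) and 0.61 for Zfp931 (adjusted p = 0.0178) among those higher in line 2. Those lower in line 2 than in line 1 were Zfp771 at -0.66 (adjusted p = 0.000788), Zfp979 at -0.64 (adjusted p = 2.02e-05), Zfp711 at -0.61 (adjusted p = 0.0441) and Zfp936 at -0.55 (adjusted p = 0.000398), all from limma.

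For line 2 over line 3 the limma differences were 1.23 for Zfp937 (adjusted p = 0.00684), 0.95 for Zfp931 (adjusted p = 0.000784), 0.93 for Zfp800 (adjusted p = 0.00855) and 0.71 for Zfp938 (adjusted p = 0.0107). Lower in line 2 than in line 3 were Zfp771 at -0.91 (adjusted p = 3.82e-05), Zfp979 at -0.83 (adjusted p = 1.07e-06) and Zfp936 at -0.73 (adjusted p = 2.42e-05). Zfp957 had a fitted value of -1.93 for line 2 over line 3, given as a description only, because the gene passed the filter on low signal through the arrays of line 3 alone and was under the floor in line 2, so the value is no bound. Without probe sets of the cross-matching type, Zfp771 gave -0.03 for line 2 over line 1 (limma, adjusted p = 0.987) and lost its call over line 3 as well (adjusted p = 0.468), and averaging its probe sets ended the call over line 1. For line 1 over line 3 the difference was -0.52 for Zfp991 (adjusted p = 0.00293 in limma). In each of these differences as first given the 2 arrays of the first line lay wholly on one side of the 2 arrays of the other.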

How the results depend on the processing

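Of 42 differences of named members, 12 kept their call under every alternative computed for them, 30 lost it under at least 1 and 0 changed direction. Without the variance trend, counts of genes fell to 289 (1022 with it) for the mean of the lines against ES cells, 47 (327) for line 1, 2442 (3738) for line 2, 22 (583) for line 3, 1857 (3267) for line 2 over line 1 and 17 (198) for line 1 over line 3. Members called were then 0 for the mean, line 1, line 3 and line 1 over line 3 in limma, with 20, 12, 13 and 12 members at an unadjusted p under 0.05, and 7 for line 2 over line 1. The mean of all probe sets gave 213 genes and 1 member for line 1, 356 genes and 0 members for line 3 (8 at an unadjusted p under 0.05) and 0 members for line 1 over line 3 (8 likewise). Line 3 against ES cells, with 1 member, had 0 under quantile normalization, centring or no filter (15, 14 and 13 at an unadjusted p under 0.05), 2 under a stricter filter and 3 with only the groups compared. Line 1 over line 3 gave 2 members with only the groups compared. Without line 2 the mean gave 502 genes and 3 members, and line 3 against ES cells and line 1 over line 3 gave 2 members each.

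Leaving out each array in turn gave 319 to 978 genes for the mean, 109 to 349 for line 1, 2558 to 3696 for line 2, 182 to 603 for line 3, 2179 to 3179 for line 2 over line 1, 3282 to 4332 for line 2 over line 3 and 52 to 192 for line 1 over line 3. Members called ranged over 1 to 9, 0 to 3, 12 to 19, 0 to 2, 8 to 13, 12 to 17 and 1 to 2 in the same order. Line 1 had 0 without replicate 2 of the ES cells (13 at an unadjusted p under 0.05), and line 3 had 0 without either ES array or either of its own (8 to 13 likewise).

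Deviations of arrays with the same replicate number correlated between -0.0137 and 0.0284, so the numbers pair nothing. With replicate number as a block the mean gave 1035 genes and 10 members, line 3 against ES cells gave 2 members, and Zfp711 lost its calls in line 2. Over all genes centring moved the share of calls that were higher to 63.1% from 52.0% for line 1, to 51.0% from 38.3% for line 3, to 34.8% from 59.1% for line 2 over line 1 and to 41.3% from 61.0% for line 2 over line 3. The cause was not tested. Array number, and for dim members signal near the floor, limit what can be called.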

Other observations

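The KRAB zinc finger genes that guard imprints, Zfp57 and Zfp445, lie outside the numbered range and were measured beside it. Zfp57 had signals of 383 and 335 in line 1, 204 and 160.4 in line 2, 304 and 306 in line 3, and 363 and 441 in ES cells. It was lower in line 2 than in ES cells by a log2 difference of -1.09 ± 0.16 (limma, adjusted p = 0.000262) and lower than in line 1 and line 3 as well, at -0.94 ± 0.16 and -0.72 ± 0.16 (adjusted p = 0.00109 and 0.00387 in limma). Zfp445 differed by -0.05 ± 0.07 in line 2 (adjusted p = 0.683 in limma), with all 8 signals between 3210.5 and 3561.

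Other motifs searched for in the promoters gave the following shares, without a test. CCGGAAG, the core letters bound by ETS factors, was found on either strand in 13.6% of member windows, 24.3% of windows of Zfp1 to Zfp699 and 8.86% of all windows. CACGTG was found in 10.7% of member windows, 4.18% of those of Zfp1 to Zfp699 and 7.15% of all. ATGCAAAT, the octamer letters, was found in 0 of 103 member windows, in 2.93% of windows of Zfp1 to Zfp699 and in 1.74% of all.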
